A study of Mus musculus with 16 samples.

Results

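S100a6, Anxa3, Ahnak2 and Hmga2 are 4 mouse genes whose RNA stood far above a common reference RNA in both groups of cultured cells studied here. They were chosen from their high log2 ratios to that reference on all arrays, so the height of those ratios is a description and carries no test. They are 4 of 7114 named genes measured, among 12761 features in all once the probes of a gene were averaged. The study used 16 colour-swapped arrays, on each of which RNA of cells was hybridised together with the reference RNA. The cells were labelled M833, with 8 arrays, or WT, which usually stands for wild type, with 8 arrays. M833 and WT are called cell types below for short, although the labels do not say that they are different kinds of cells. In each of them replicates 1 to 4 carried the cells' RNA in Cy5 and replicates 5 to 8 carried it in Cy3. The series title speaks of mutations of Met, the receptor for hepatocyte growth factor, in MEFs, which usually stands for mouse embryonic fibroblasts. Neither the meaning of M833, nor the number of embryos or cultures, nor the make-up of the reference is told by the labels. All values below are log2 ratios taken to run as sample over reference, a direction that the array titles make likely but that is not stated. Read the other way round, every level, rank and difference given here would change its sign, while sizes and p-values would stay.

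S100a6, also called calcyclin, is a small calcium-binding protein with EF hands that is made in dividing fibroblasts and epithelial cells and meets several partners, among them annexins and the ubiquitin ligase adaptor Cacybp. Anxa3 encodes an annexin, one of the proteins that bind acidic phospholipids of membranes when calcium is present. Ahnak2 encodes a very large scaffold protein with a PDZ domain, and its relative Ahnak binds the complex of S100a10 and Anxa2 below the plasma membrane. Hmga2 is a chromatin protein whose AT hooks bind the minor groove of AT-rich DNA, it is made in embryonic and mesenchymal cells and little in most adult tissues, and its messenger RNA is a target of let-7 microRNAs. The 4 genes belong to separate families.

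The 250 bases before the start of transcription are shown for the genes that could be matched by gene number in a RefSeq promoter table of build GRCm38.p6, which were S100a6 at chr3:90612644-90612893 on the plus strand and Hmga2 at chr10:120476470-120476719 on the minus strand. They are shown because they are where the RNAs with such high ratios begin. Each is written 5′ to 3′ along the gene's own strand, with the matched motif in capitals.
S100a6: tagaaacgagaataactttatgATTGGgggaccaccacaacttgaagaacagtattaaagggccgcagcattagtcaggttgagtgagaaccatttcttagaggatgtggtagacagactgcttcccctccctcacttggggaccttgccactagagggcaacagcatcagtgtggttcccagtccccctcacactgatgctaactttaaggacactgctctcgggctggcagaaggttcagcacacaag
Hmga2: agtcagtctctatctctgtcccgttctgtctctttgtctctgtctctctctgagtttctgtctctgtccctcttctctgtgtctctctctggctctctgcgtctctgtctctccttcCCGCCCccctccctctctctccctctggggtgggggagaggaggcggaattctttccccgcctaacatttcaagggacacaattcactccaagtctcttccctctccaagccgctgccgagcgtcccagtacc

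In both windows 5 motifs were looked for on both strands, none of them overlapping another where found. They were the TATA box TATAAA, the CCAAT box CCAAT, the GC box GGGCGG, the E-box CACGTG and the AP-1 site TGANTCA. The S100a6 window held a CCAAT box on the reverse strand, read as ATTGG, at position -228 from the start, and none of the others. The Hmga2 window held a GC box on the reverse strand, read as CCGCCC, at position -133, and none of the others. Such matches are common, since 33.8% of 32851 promoters of the same length held a CCAAT box and 32.7% held a GC box, against 12.4% with TATAAA, 6.75% with the AP-1 site and 6.02% with the E-box. The base make-up of the Hmga2 window was the less common feature. It was a run of C and T with 70.8% of these bases, and 0.387% of all promoters had a higher share, whereas the S100a6 window had 47.2%, near the median of 50.0%. The arrays did not measure these windows, so nothing about their use follows from the letters.

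The arrays were similar enough to be compared, with 1 exception in detail. Correlations between any pair ran from 0.591 to 0.973 over all features, and from 0.818 without WT replicate 2, which held 49 values above 8 on the log2 scale where the other arrays held 0. None of the 4 genes was among those values, but the highest S100a6 ratio, 4.57, was on that array. Without WT replicate 2 the S100a6 difference of M833 minus WT was -0.19 (adjusted p = 0.0617 in limma), against -0.25 with all arrays. Array medians lay between -0.02 and 0.07. Of 12 measured fibroblast genes, fibronectin (Fn1) averaged 1.65 in M833 and 2.03 in WT and vimentin (Vim) averaged 0.85 in M833 and 1.04 in WT, both above the reference, while decorin (Dcn) averaged -2.80 in M833 and -2.56 in WT. In all, 6 of the 12 lay below the reference in M833 and 4 in WT, which describes a ratio to an unknown mixture and not a missing RNA. All 4 measured endothelial and all 6 measured epithelial genes averaged less than the reference in M833 and in WT.

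S100a6 had the highest mean ratio to the reference of all 12761 features. Its log2 ratio averaged 3.70 ± 0.15 in M833 and 3.95 ± 0.19 in WT (SD, n = 8 arrays each, after the mean of each dye orientation was subtracted, as for every SD here). Ahnak2 ranked 4th of all features, with 2.43 ± 0.11 in M833 and 2.70 ± 0.35 in WT, or 5.38 and 6.50 times the reference. Anxa3 ranked 5th, with 2.66 ± 0.17 in M833 and 2.16 ± 0.48 in WT, or 6.31 and 4.48 times the reference. Hmga2 ranked 6th, with 2.58 ± 0.12 in M833 and 2.23 ± 0.14 in WT, or 5.99 and 4.68 times the reference.

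The choice of the genes fixed that they rank high, and the order among them is given only as a description. Below S100a6 the other 3 genes lay close together in M833. There Anxa3 and Hmga2 differed by less than their SDs, while Ahnak2 lay below Hmga2 by somewhat more than the SD of either. In WT Ahnak2 was the highest of these 3, and Hmga2 and Anxa3 differed by less than their SDs. Within a single cell type the ranks among all features were 1 for S100a6, 2 for Anxa3, 4 for Hmga2 and 8 for Ahnak2 in M833, against 1, 19, 16 and 5 for the same genes in WT. Among named genes only Tnc, which encodes the matrix protein tenascin C, came between S100a6 and the rest, with 2.56 in M833 and 2.80 in WT, and the next named gene below Hmga2 was Ephx1, an epoxide hydrolase, with 1.92 in M833 and 2.84 in WT. These ratios set cultured cells against a mixture of unknown make-up, so their order is not an order of RNA abundance.

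**Figure D1:**
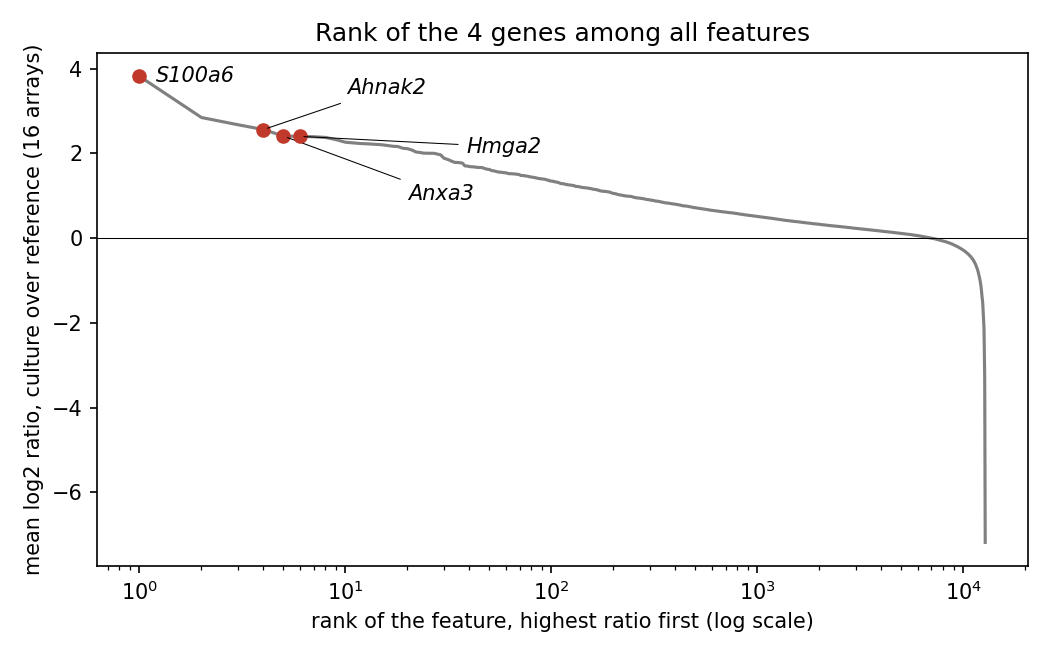
Mean log2 ratio of culture over reference on 16 arrays (vertical axis) for every feature by its rank on a log scale (horizontal axis), with the 4 genes as red points. S100a6 sits at rank 1, and Ahnak2, Anxa3 and Hmga2 at ranks 4, 5 and 6 on the steep left end of the curve.

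The rule by which the genes were chosen uses the ratio to the reference and not the difference of M833 from WT, in which the reference cancels, although the choice was made with earlier results of these data known. It was tested with limma on all 16 arrays with dye orientation as a second term, and p-values were adjusted by Benjamini-Hochberg over all 12761 features. Of the 4 genes 3 passed an adjusted p of 0.05, where 25.9% of all features passed. Anxa3 and Hmga2 were the 2 that were higher in M833, where 10% of all features were called higher, and S100a6 was the 1 that was lower, where 15.9% were called lower. Ahnak2 did not pass. None of the 4 had one of the very largest differences. By size of the difference their ranks among all 12761 features were 453 for Anxa3, 984 for Hmga2, 1727 for Ahnak2 and 2037 for S100a6.

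The split of all calls was 1276 higher and 2025 lower in M833, so that 38.7% were higher, but this share was 48.8% when each array was centred on its median and 53.7% after quantile normalisation between arrays. Whether the arrays of a cell type came from separate cultures is not told by the labels, so these p-values measure the spread between arrays, which may be technical. RNA of whole cultures cannot tell fewer cells of a kind from less RNA per cell. Markers of other kinds of cells and of fibroblasts differed between M833 and WT as well. All 7 measured macrophage genes, among them C1qa, C1qb and Lyz2, were lower in M833, where 15.9% of all features were: their mean log2 ratio ran from -1.60 to -1.29 on the M833 arrays and from -0.46 to -0.28 on the WT arrays. Of 12 measured fibroblast genes 8 were lower and 0 higher in M833, with a median difference of -0.23, and the list mean ran from -0.70 to -0.06 on the M833 arrays and from -0.38 to 0.23 on the WT arrays. All 3 measured skeletal muscle genes were higher in M833, where 10% of all features were, with a median difference of 0.61, and their list mean ran from -2.27 to -1.72 on the M833 arrays and from -2.85 to -2.17 on the WT arrays. The part of these lists in the differences described here was not tested.

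**Figure D2:**
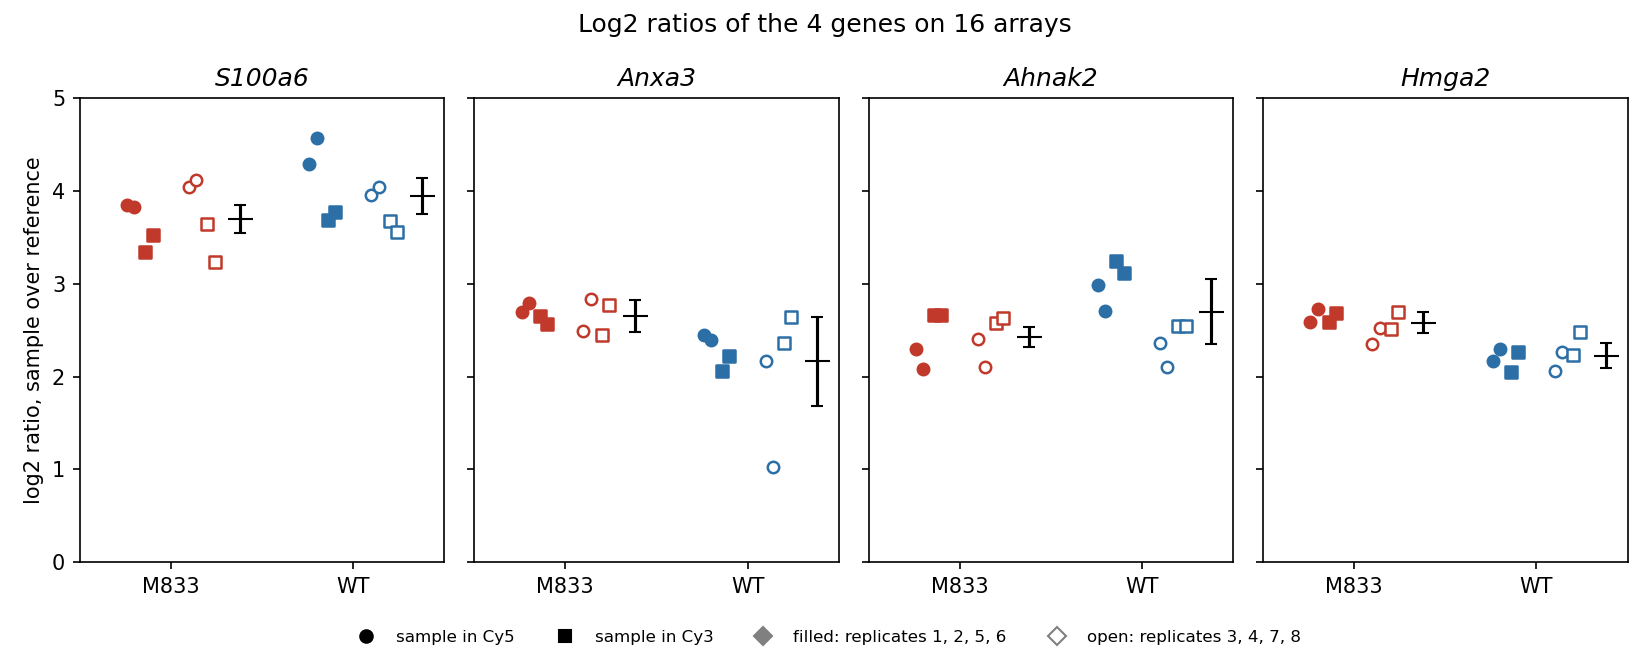
Log2 ratio of sample over reference (vertical axis) on each array for the 4 genes, M833 in red and WT in blue. Circles are arrays with the sample in Cy5 and squares those with the sample in Cy3, filled for replicates 1, 2, 5 and 6 and open for replicates 3, 4, 7 and 8, and black bars are the mean with SD after removal of the dye orientation means. The Hmga2 points of M833 lie above those of WT of the same dye, and the filled WT points of Ahnak2 lie above all other Ahnak2 points.

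Hmga2 had the smallest adjusted p of the 4 genes. Its log2 ratio had a lowest value of 2.35, a median of 2.58 and a highest of 2.72 on the M833 arrays, against 2.04, 2.25 and 2.48 on the WT arrays. With the sample in Cy5 the arrays ran from 2.35 to 2.72 in M833 and from 2.06 to 2.30 in WT, and with the sample in Cy3 they ran from 2.51 to 2.70 in M833 and from 2.04 to 2.48 in WT. Every M833 array thus lay above every WT array of the same dye orientation, in both orientations, which held for 1 of the 4 genes and for 10.5% of all features in either direction. The difference was 0.36 ± 0.06 (SE) on the log2 scale, with a 95% interval of 0.22 to 0.49, or 1.28-fold, and its adjusted p in limma was 0.000708.

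The 3 probes of Hmga2 all showed this difference. Probe 203797 averaged 2.84 ± 0.16 in M833 and 2.45 ± 0.15 in WT (SD, n = 8), a difference of 0.38 with an adjusted p of 0.00169 in limma over all probes. Probe 211961 averaged 2.84 ± 0.12 in M833 and 2.50 ± 0.16 in WT, a difference of 0.35 with an adjusted p of 0.00206. Probe 211296 had a lower ratio, 2.06 ± 0.12 in M833 and 1.72 ± 0.14 in WT, with a difference of 0.34 and an adjusted p of 0.00145. The differences between cell types of the 3 probes thus lay within 1 SE of each other, the SE being 0.07 to 0.08. Leaving out each array in turn moved the gene's difference between 0.32 and 0.39 and cost no call. It was 0.80 when all arrays were brought to the same median absolute log ratio, and 0.93 after quantile normalisation. The former moves such high ratios up on arrays of narrow spread and down on arrays of wide spread. The call was lost with the Cy5 arrays alone, at an adjusted p of 0.057 with an almost equal difference of 0.35, and with only 2 means a cell type, at an adjusted p of 0.271.

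**Figure D3:**
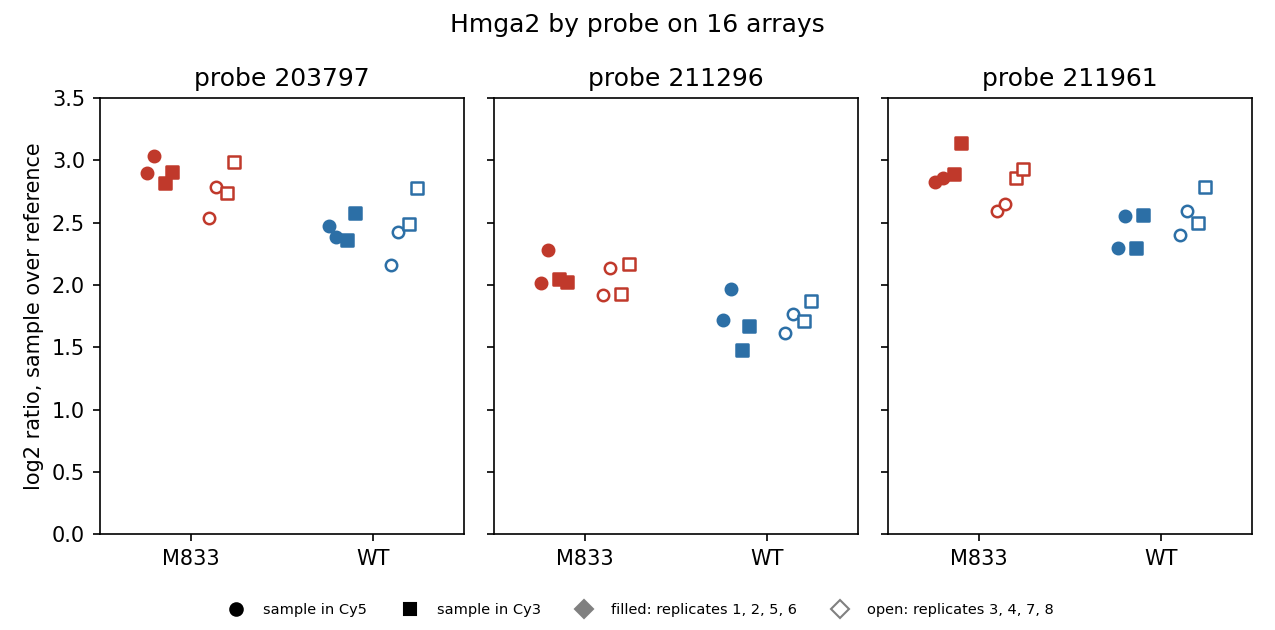
Log2 ratio of sample over reference (vertical axis) on each array for the 3 Hmga2 probes, M833 in red and WT in blue, with circles for the sample in Cy5 and squares for the sample in Cy3, filled for replicates 1, 2, 5 and 6 and open for the others. In each probe the M833 mean, 2.84, 2.06 or 2.84 from left to right, lies above the WT mean, 2.45, 1.72 or 2.50.

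Anxa3 was also higher in M833, but with a wider spread in WT. Its log2 ratio had a lowest value of 2.45, a median of 2.68 and a highest of 2.84 on the M833 arrays, against 1.03, 2.29 and 2.64 on the WT arrays. All M833 arrays lay above the WT arrays when the sample was in Cy5, and the ranges overlapped when it was in Cy3. The value of 1.03 belonged to WT replicate 4 alone, and the next lowest WT array had 2.06. The difference was 0.49 ± 0.17 (SE), with a 95% interval of 0.12 to 0.86, or 1.41-fold, at an adjusted p of 0.0474 in limma. Without WT replicate 4 it was 0.33 ± 0.08 at an adjusted p of 0.0107, so the low array widened both the difference and its error.

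The call of Anxa3 sat at the threshold. It was lost, with differences of 0.46 to 0.51 and adjusted p-values of 0.0546 to 0.0883, when any of M833 replicates 1 to 6 or 8 or of WT replicates 3, 5, 6 or 7 was left out. No alternative turned its direction. The difference was 0.94 when all arrays were brought to the same median absolute log ratio, and 1.05 after quantile normalisation. Such scaling raises high ratios on arrays of narrow spread and lowers them on arrays of wide spread, as described for S100a6 below. With the Cy3 arrays alone the difference was 0.29, against 0.70 with the Cy5 arrays alone, where WT replicate 4 belongs.

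S100a6 was lower in M833. Its log2 ratio had a lowest value of 3.23, a median of 3.73 and a highest of 4.12 on the M833 arrays, against 3.56, 3.86 and 4.57 on the WT arrays. The cell types overlapped in both dye orientations. The difference was -0.25 ± 0.08 (SE), with a 95% interval of -0.43 to -0.07, a fold of 0.842, at an adjusted p of 0.0416 in limma. Although this gene had the highest ratio of all, the difference between cell types was the smallest of the 4.

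The call of S100a6 was not steady either. It was lost, with differences of -0.25 to -0.19 and adjusted p-values of 0.0592 to 0.0805, when any of M833 replicates 1, 2, 5 or 8 or of WT replicates 1, 2, 5, 6 or 7 was left out. Its direction depended on the scaling: the difference was 0.46 (adjusted p = 0.0574) when all arrays were brought to the same median absolute log ratio, and 0.42 (adjusted p = 0.354) after quantile normalisation. The median absolute log ratio of an array ran from 0.199 to 0.283 in M833 and from 0.230 to 0.343 in WT. The scaling stretches arrays of narrow spread and shrinks arrays of wide spread, so it tends to raise high M833 ratios against WT ones. A gene so far above the reference moves with it by construction. On the deposited scale too the call was lost with array weights (-0.17, adjusted p = 0.103), with the sets of arrays described below as a random block (-0.25, adjusted p = 0.243) and with set means (-0.25, adjusted p = 0.457).

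Ahnak2 did not pass the test between cell types, and its main feature was a division within WT. Its log2 ratio had a lowest value of 2.09, a median of 2.49 and a highest of 2.67 on the M833 arrays, against 2.10, 2.62 and 3.25 on the WT arrays. The cell types overlapped in both dye orientations, and the difference was -0.27 ± 0.13 (SE), with a 95% interval of -0.54 to -0.003, at an adjusted p of 0.129 in limma. Its sign also turned under scaling and under quantile normalisation, to 0.19 in each case.

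In an earlier look at these data the arrays of each cell type had been found to deviate from their mean in 2 sets of 4, replicates 1, 2, 5 and 6 and replicates 3, 4, 7 and 8, which the labels do not name. Over all features the deviations of WT arrays correlated between -0.37 and 0.69 within a set and between -0.79 and -0.03 across sets. Those of M833 arrays correlated between -0.24 and 0.23 within a set and between -0.41 and 0.13 across sets. The ranges overlapped in both cell types. The highest correlation within a set was 0.69 in WT and 0.23 in M833, so the M833 sets are less clear. These correlations do not test the sets, which were found from the same deviations. Taking deviations from the mean of the 8 arrays also pushes correlations down in general, within sets as well as across them. After adjustment for dye, Ahnak2 averaged 3.01 in the first WT set, with arrays of 2.89 to 3.18, and 2.39 in the second, with arrays of 2.29 to 2.55. It averaged 2.43 in both M833 sets, with arrays of 2.27 to 2.59 over the 8. The first WT set therefore lay above every other array, and the second lay within the range of M833. Against the first WT set alone the difference was -0.59 (adjusted p = 7.7e-05 in limma), and against the second alone it was 0.04 (adjusted p = 0.681). The sets were found from values on these arrays, so p-values against a single WT set, here and below, are no independent evidence. Fits with the sets as a random block or with set means, above and below, do not check calls independently of that choice either. The block also takes 1 correlation, 0.324, for both cell types.

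In WT the other 3 genes differed less between the sets than Ahnak2 did, whereas in M833 Ahnak2 differed least. S100a6 averaged 3.64 and 3.76 in the first and second M833 sets, and 4.08 and 3.81 in the first and second WT sets. Anxa3 averaged 2.68 and 2.64 in the M833 sets, and 2.28 and 2.05 in the WT sets, with the low array in the second. Hmga2 averaged 2.64 and 2.52 in the M833 sets, and 2.19 and 2.26 in the WT sets. For S100a6 too the difference was smaller against the second WT set, -0.11 (adjusted p = 0.323), than against the first, -0.38 (adjusted p = 0.00612). The sets were found from these arrays, so this is no independent evidence of the division. The macrophage genes did not follow this division, since their mean ran from -0.44 to -0.29 in the first WT set and from -0.46 to -0.28 in the second.

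The dye that carried the sample shifted some of these genes. S100a6 read 0.54 higher with the sample in Cy5 than in Cy3 (adjusted p = 0.000123 in limma), more than its difference between cell types. Ahnak2 read lower in Cy5, by -0.37 (adjusted p = 0.0285), whereas Anxa3 at -0.11 (adjusted p = 0.643) and Hmga2 at -0.07 (adjusted p = 0.423) did not pass. That is 2 of the 4 genes, where 41.3% of all features passed. Because each cell type had 4 arrays of each orientation, such shifts cancel in the difference between them. The M833 and WT means of S100a6 were 3.96 and 4.22 in Cy5 and 3.43 and 3.67 in Cy3, so the cell types differed by -0.26 in Cy5 and by -0.24 in Cy3.

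A test of whether the difference itself changed with the orientation called none of the 4 genes. It called 0% of all features in limma, and 361 of 12761 had an unadjusted p under 0.05. The largest of these interaction terms was that of Anxa3, 0.41 (adjusted p = 0.9997), and those of the other 3 genes lay between -0.09 and -0.01.

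**Figure D4:**
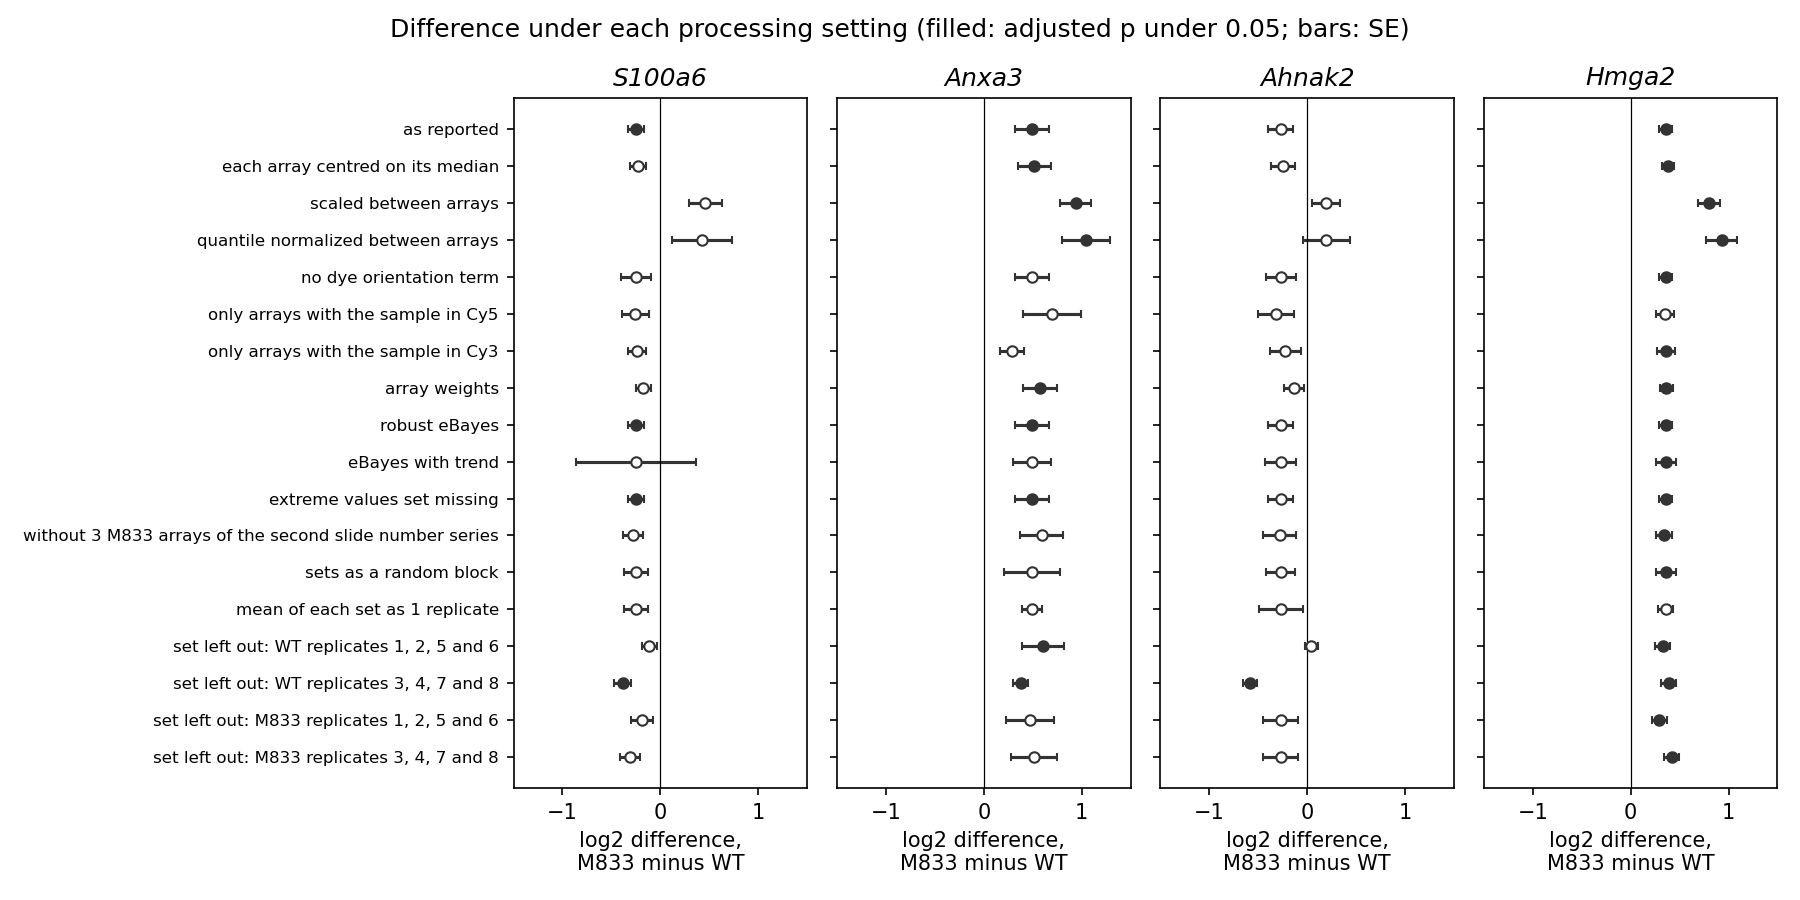
Difference of M833 minus WT on the log2 scale (horizontal axis, with SE) for the 4 genes under the values as reported and each processing alternative (rows), filled where the adjusted p was under 0.05. Hmga2 and Anxa3 stay to the right of 0 throughout, and S100a6 and Ahnak2 cross it under scaling and quantile normalisation, Ahnak2 also without WT replicates 1, 2, 5 and 6.

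The relatives and partners of the 4 genes were read from lists chosen with earlier results of these data known, and are given as counts. Of 17 genes of the S100 family 4 were measured, and 2 of them, S100a6 and S100a13, were lower in M833, where 15.9% of all features were, with a median difference of -0.11 over the list and -0.03 over all features. With the sets of arrays as a random block only S100a13 passed (adjusted p = 0.0047, against 0.243 for S100a6). S100a13, which takes part in the release of growth factors that lack a signal peptide, averaged 0.00 in M833 and 0.24 in WT, a difference of -0.24 ± 0.03 (SE, adjusted p = 7.9e-05 in limma). It was lower in both M833 sets, at -0.02 and 0.03, than in both WT sets, at 0.28 and 0.20. S100a9, a protein of neutrophils and monocytes, was the lowest of the family at -4.39 in M833 and -4.40 in WT, and S100g differed by 0.13 without passing. S100a6 and S100a13 lie in the same gene cluster on chromosome 3, where 3 of 15 S100a genes were measured, and the third, S100a9, differed by 0.01.

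Of 12 annexins 8 were measured, and 2 were higher and 2 lower in M833, with a median difference of -0.03, where 10% of all features were higher and 15.9% lower. With the random block 0 were higher, at adjusted p-values of 0.344 for Anxa3 and 0.325 for Anxa2, and Anxa4 and Anxa6 were still lower. Besides Anxa3, the higher one was Anxa2, the partner of S100a10, at 1.22 in M833 and 1.09 in WT, a difference of 0.13 with an adjusted p of 0.0499 that was lost in 12 of the 16 fits that left out an array, at adjusted p-values of up to 0.0974. It held only without M833 replicates 5 or 8 or WT replicates 5 or 6. Anxa4 averaged -0.30 in M833 and 0.14 in WT, a difference of -0.44 ± 0.11 (adjusted p = 0.00964), and Anxa6 averaged -0.11 in M833 and 0.12 in WT, a difference of -0.23 ± 0.05 (adjusted p = 0.00382). Anxa4 also divided within WT. It differed by -0.73 against the first WT set alone (adjusted p = 1.8e-06) and by -0.15 against the second alone (adjusted p = 0.0504). For Anxa6 these were -0.12 (adjusted p = 0.0469) and -0.34 (adjusted p = 3.9e-05). As for Ahnak2, these p-values are no independent evidence, since the sets were found from these arrays. Anxa1, with 2.26 in M833 and 2.07 in WT, was the next after Anxa3 in level and did not pass (adjusted p = 0.0846). The annexins thus went both ways.

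Ahnak2 was set beside 14 other measured genes of AHNAK and of membrane repair, from a list of 28. Of these 15 genes 1, Anxa2, was higher and 5 were lower in M833, with a median difference of -0.08, where 10% of all features were higher and 15.9% lower. Dysferlin (Dysf), a membrane protein that muscle fibres need to reseal their surface, averaged -0.26 in M833 and 0.33 in WT, a difference of -0.59 ± 0.07 (adjusted p = 1.0e-05 in limma). Ehd4, an endosomal ATPase, had the lowest ratio of the list, -1.01 in M833 and -0.66 in WT, and differed by -0.34. Chmp4b, a subunit of the ESCRT filament, differed by -0.14, its recruiter Pdcd6ip by -0.09 and the calcium sensor Pdcd6 by -0.12. The call of Pdcd6 was lost in 11 of 16 fits that left out an array. The counts depended on the scaling, with 2 higher and 3 lower when arrays were centred, 4 higher when they were scaled, and 0 higher and 3 lower with the sets as a random block.

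Among 13 measured partners of S100A6 and annexins, from a list of 16, 3 were higher and 4 lower in M833, with a median difference of -0.03, where 10% of all features were higher and 15.9% lower. The higher ones were the nuclear lamina protein Lmnb1 by 0.56, which also had the lowest ratio of the list with -0.84 in M833 and -1.40 in WT, the chaperone Hsp90aa1 by 0.27 and its cochaperone Stip1 by 0.23. The lower ones were the lipid droplet coat Plin2 by -0.88, the p53 ligase Mdm2 by -0.52, the tetraspanin Cd63 by -0.36 and the tropomyosin Tpm2 by -0.24, the last lost in 10 of 16 fits that left out an array. Mdm2, with 1.82 in M833 and 2.34 in WT, and Cd63, with 0.99 in M833 and 1.35 in WT, had the highest ratios. Cacybp, named for its binding of calcyclin, differed by -0.03 and did not pass.

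The list of HMG proteins, to which Hmga2 belongs, leaned to one side. Of 13 genes 8 were measured, all 8 differences were above 0, and 4 passed as higher in M833 and 0 as lower, with a median difference of 0.28, where 10% of all features were higher and 15.9% lower. With the random block, and also under scaling, 3 passed, and with the block Hmgb2 was the 1 lost (adjusted p = 0.0688). Hmgb2, an HMG-box protein of dividing cells, averaged -1.12 in M833 and -1.75 in WT, a difference of 0.64 ± 0.17 (adjusted p = 0.0118 in limma). Hmgb3 differed by 0.43 ± 0.07 and the nucleosome-binding Hmgn1 by 0.20 ± 0.03, with Hmgn1 the next in level after Hmga2 at 0.45 in M833 and 0.26 in WT. Hmgn2, at -1.12 in M833 and -1.52 in WT, differed by 0.41 and did not pass (adjusted p = 0.0639). Against the first WT set alone Hmgb2 differed by 0.28 (adjusted p = 0.162), and against the second alone by 1.001 (adjusted p = 0.000219). The sets were found from these arrays, so neither p-value is independent evidence.

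Apart from Hmga2 and Hmgn1, these genes averaged less than the reference in M833 and in WT, while the high ratio of Hmga2 was the reason for its choice. The mean over the list ran from -0.08 to 0.02 on the M833 arrays, from -0.26 to -0.17 in the first WT set and from -0.51 to -0.41 in the second, so that it also divided the WT arrays, whereas the Hmga2 values of those sets overlapped. Of 25 genes of the let-7 axis and of HMGA2 targets 12 were measured, 1 was higher and 0 lower in M833, with a median difference of 0.10, where 10% of all features were higher and 15.9% lower. The 1 was Plagl2, a zinc finger factor, at -0.96 in M833 and -1.20 in WT, with a difference of 0.24 (adjusted p = 0.00101) that was 0.04 under scaling. Ercc1, a DNA repair endonuclease subunit, and the RNA-binding protein Igf2bp1 had the highest ratios in M833, 0.97 and 0.26, against 1.04 and 0.07 in WT, and Myc had the lowest, -1.44 in M833 and -1.36 in WT. None of these 3 passed.

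**Figure D5:**
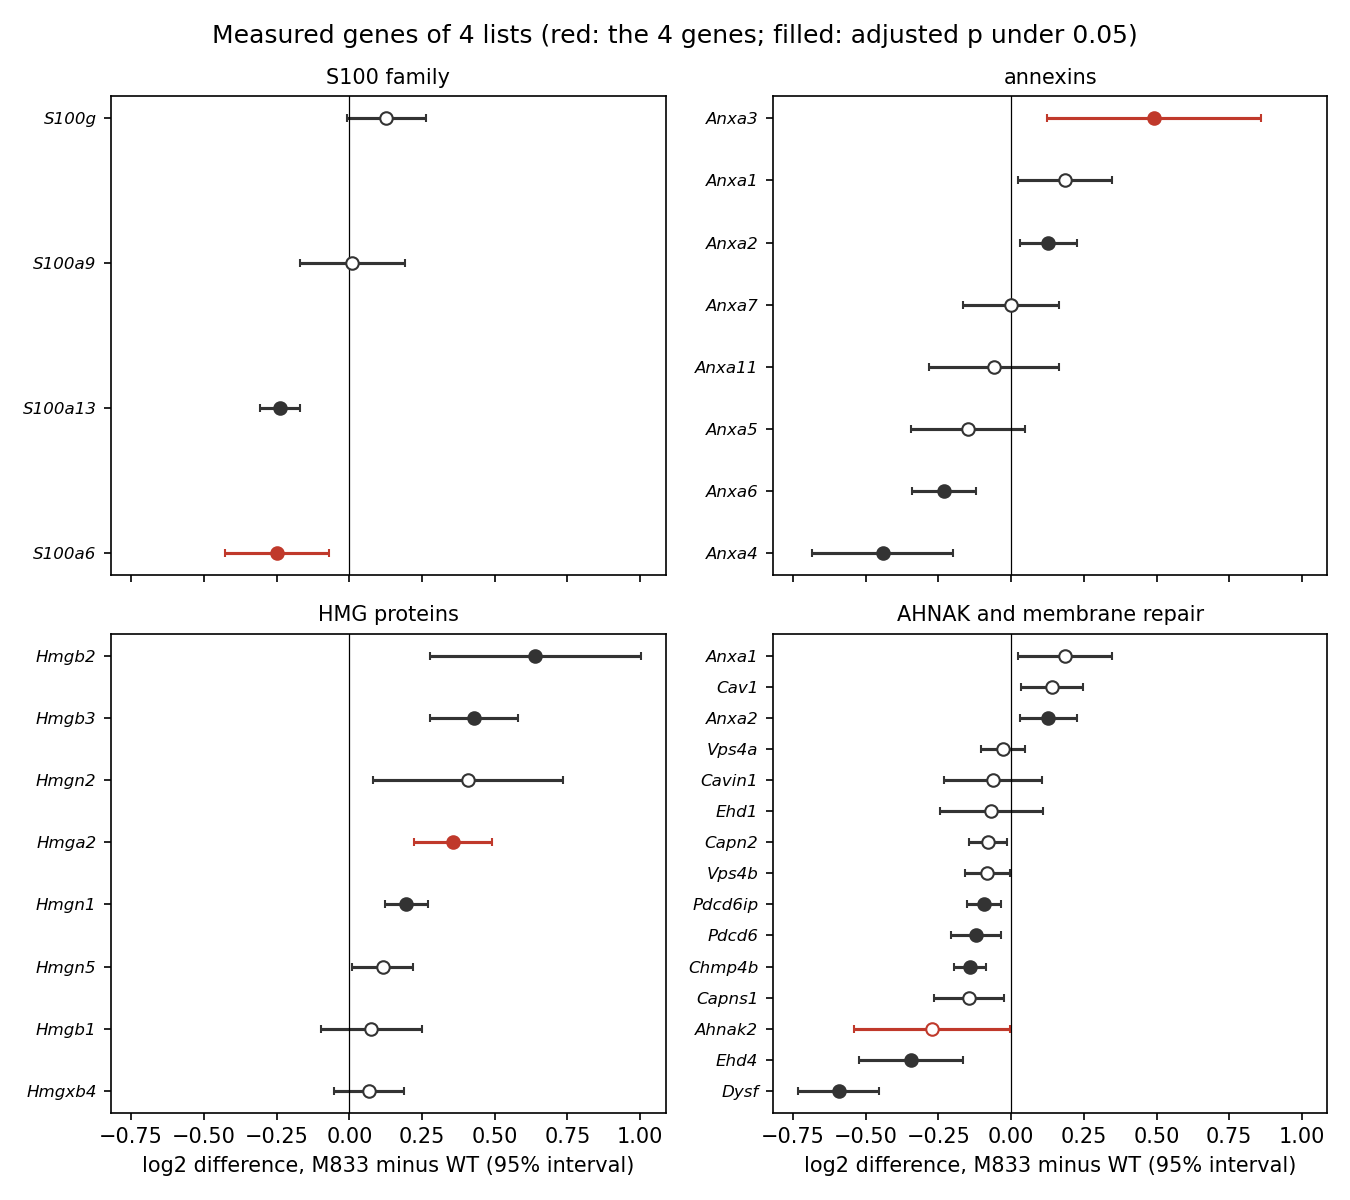
Difference of M833 minus WT on the log2 scale with its 95% interval (horizontal axis) for the measured genes of 4 lists, filled where the adjusted p was under 0.05 and red for the 4 genes. All 8 HMG genes lie to the right of 0, while annexins and membrane repair genes lie on both sides.

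Over the 16 arrays the 4 genes formed no single pattern. After the mean of each dye orientation was subtracted, S100a6 correlated with Ahnak2 at 0.60 and Anxa3 with Hmga2 at 0.59, whereas Hmga2 correlated with S100a6 at -0.57 and with Ahnak2 at -0.60. Anxa3 correlated with S100a6 at -0.25 and with Ahnak2 at -0.11. These values describe points that share the reference, the array and the division into M833 and WT.

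For each gene the 4 named genes with the most similar course over the 16 arrays were found by Pearson's r. They were picked as the highest among all named genes, so the size of r carries no test. Only dye means were subtracted, so r also takes in the difference between M833 and WT and the division within WT. Hmga2 was closest to Rnps1, a splicing factor, at 0.93, then to Nanos1 at 0.90, Klhdc4 at 0.89 and the RNA helicase Ddx39a at 0.89. Ahnak2 was closest to Prr13 at 0.96, the membrane skeleton protein Add1 at 0.96, Btg1 at 0.95 and the sialyltransferase St8sia2 at 0.95. Anxa3 was closest to Rhox6 at 0.89, the kinase subunit Csnk2a2 at 0.86, the ribosomal protein Rpl35a at 0.85 and agrin (Agrn) at 0.84, and S100a6 to Cmtm3 at 0.88, A430033K04Rik at 0.86, Trim75 at 0.84 and 3830406C13Rik at 0.84. With Spearman's rho in place of r, 2 of the 4 neighbours stayed for Hmga2 and 1 of 4 for each of the other genes. By that measure the closest gene to S100a6 was S100a13, at 0.87, which is named after its value was seen.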

How the data were processed

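Per the labels' protocols, Trizol was used to obtain total RNA, and CyDye nucleotides were built in directly during reverse transcription. The deposited values are the authors' log2 ratios, with array medians near 0, and limma is named, without its role, per the submitters' processing notes. Not given in the sources used here are its version, the background correction and the normalisation. That the scale is log2 was taken from the values. That ratios run as sample over reference is likely from the array titles but is not stated. Every pair of arrays correlated positively, which speaks for a shared direction but does not tell which one. Channel intensities were not used, so no filter on dim probes or other background correction was tried.

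Of 15247 probes 9600 had 1 gene symbol in the platform annotation, 214 several and 5433 none. By Entrez number 9492 matched a current gene table, with 0 symbols changed. The number given for Ahnak2 did not match, and the annotation's name was kept. Probes of 1 symbol were averaged.

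The fit used limma 3.58.1 in R 4.3.3 (lmFit, eBayes) with cell type and dye orientation, on 16 arrays with 0 missing values. Its code was run on simulated data with independent noise on each array. Such data cannot check the fit where arrays vary together in sets. The depth of an array is not defined, so the number of arrays limits the precision. The genes and lists were chosen with earlier results of these data known. Named from each list were all called genes, up to 5 in each direction, the 2 highest and the lowest by level in M833, and for each of the 4 genes its 4 closest neighbours. Alternatives covered centring, scaling, dye, weights, moderation, extreme values, slide series, sets of arrays and each array left out.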

Additional observations from a re-analysis of the deposited data

Results flagged for a closer look

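Anxa3 on WT replicate 4 had a log2 ratio of 1.03, far below all other WT arrays. Its gap to the nearest of them, after adjustment for dye, was 0.616 of the whole range of the 8 arrays, above Dixon's critical value at the 95% level. Of 8 groups checked, the 4 genes in each cell type, this was the only one past the limit, and chance passes it in about 1 group in 20. Without this array the difference of M833 minus WT was 0.33 ± 0.08 (SE, adjusted p = 0.0107 in limma), against 0.49 ± 0.17 with it. The value rests on a single probe, and its cause was not tested.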

How the results depend on the processing

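No paired analysis was possible because the labels carry no replicate numbers, and those used here were given in accession order. Hmga2 kept its direction in 20 of 20 alternatives and its call in 18, and Anxa3 kept its direction in 18 of 18 and its call in 9. S100a6 kept its call in 4 of 18 and reversed in 2. Ahnak2 reversed in 3 of 18, and passed the threshold in 1. These tallies include settings that leave the difference itself unchanged: other moderation, no dye term, the random block and set means. Setting extreme values missing removed no value of the 4 genes, and a probe by itself is the whole gene except for Hmga2. Scaling between arrays raised the difference of all 4 genes, as described for S100a6.

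Adjusted p-values stand in parentheses. For S100a6 the difference was -0.23 (adjusted p = 0.0555) with arrays centred, 0.46 scaled, 0.42 quantile normalised, -0.25 without the dye term (0.328), -0.26 in Cy5 alone (0.298), -0.24 in Cy3 alone (0.143), -0.17 with array weights (0.103), -0.25 with a trend in the moderation (adjusted p = 0.79) and -0.28 without the 3 M833 arrays whose slide numbers form another series (0.076). With the sets as a random block, at a correlation of 0.324, it was -0.25 (adjusted p = 0.243), and with set means -0.25 (0.457). It was -0.19 without M833 replicates 1, 2, 5 and 6, -0.31 without M833 replicates 3, 4, 7 and 8, and -0.11 with WT replicates 1, 2, 5 and 6 left out. Leaving out 1 array gave -0.29 to -0.19. The trend follows the mean log ratio, of which S100a6 has the highest, and its SE was 0.61 there against 0.08 without a trend. That fit is therefore a poor check of this gene.

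Anxa3 lost its call at 0.49 without the dye term (adjusted p = 0.0599), with a trend (0.0694), with the random block (0.344) and with set means (0.271). It also lost it at 0.70 in Cy5 alone, 0.29 in Cy3 alone, 0.59 without those 3 M833 arrays, 0.47 without M833 replicates 1, 2, 5 and 6 and 0.51 without M833 replicates 3, 4, 7 and 8. Leaving out 1 array gave 0.33 to 0.56. Ahnak2 was 0.19 scaled, 0.19 quantile normalised, 0.042 with WT replicates 1, 2, 5 and 6 left out and -0.59 when the other WT set was dropped, and leaving out 1 array gave -0.34 to -0.20. Hmga2 lost its call at 0.35 in Cy5 alone (adjusted p = 0.057) and 0.36 with set means (0.271), and leaving out 1 array gave 0.32 to 0.39. The causes were not tested, though fits of 1 dye or without a set hold fewer arrays.

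The number of features called, 3301, was 2000 without the dye term, 835 in Cy5 alone, 1100 in Cy3 alone, 1465 with the random block, 1685 and 1858 without the first or the second M833 set, 4328 and 4629 without the first or the second WT set, 3886 with array weights, and 0 with set means in limma, where 1675 had an unadjusted p under 0.05. Leaving out 1 array gave 2878 to 3295. Without those 3 M833 arrays it was 2206. Of the list counts, 1 S100 gene in place of 2 was lower with centring or the random block, 0 annexins in place of 2 were higher with the block, 2 partners in place of 4 were lower under scaling, and the let-7 list had 0 higher and 1 lower under scaling.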
